A study of Mus musculus with 8 samples.

Results

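The smooth muscle contractile genes described here are 34 genes whose products form the actin and myosin filaments of smooth muscle, tie them to the cell membrane, switch contraction on and off, or drive the transcription of this machinery. They were given by symbol, and every probe set annotated to one of these symbols was taken. The 34 genes had 74 of the 45037 probe sets tested and were 34 of the 18193 genes measured by an own probe set. Whole prostate was measured in 4 *Olfm4*-knockout (*Olfm4*-/-) and 4 wild-type (*Olfm4*+/+) mice, with RNA of 1 mouse on each array. All mice were 3 months old, and Black Swiss mice of the National Institutes of Health and 129/SV mice each gave 50% of their background. The knockout line was kept by crossing heterozygous mice, so *Olfm4*, which encodes a secreted glycoprotein, was not lost from the prostate alone. Each of the 2 array days held 2 arrays of either genotype.

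A smooth muscle cell contracts when calcium binds calmodulin and activates myosin light chain kinase, which phosphorylates the regulatory light chain of myosin, and it relaxes when a myosin phosphatase removes that phosphate. The transcription of many of these genes is driven by serum response factor (SRF), which binds a short sequence called the CArG box, together with its muscle coactivator myocardin. In the mouse prostate, smooth muscle lies in thin sheaths around the ducts and in the walls of blood vessels, and its contraction moves secretion out of the gland.

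To show the sequence through which SRF is known to act, promoter windows of the members were searched for the CArG box. The RefSeq table of GRCm38.p6 held a promoter for 29 of the 34 members, and *Actg2*, *Tagln*, *Myh11*, *Nexn* and *Myocd* were not among them. Within 250 bases before the start site, 4 of these 29 genes (13.8%) held a CArG box, *Cnn2*, *Myl9*, *Vcl* and *Srf* itself. Of all 27025 genes with a window, 1.62% held one, and of all 32851 windows, 1.47%. The consensus reads the same on both strands, so one search covered both, and no other motif was searched. The stretches around these boxes are printed below from 5′ to 3′ on the strand of the gene, in lower case with the CArG box in capitals.
*Cnn2*, chr10:79988524-79988573, plus strand: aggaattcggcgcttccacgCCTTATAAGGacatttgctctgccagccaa
*Myl9*, chr2:156775283-156775332, plus strand: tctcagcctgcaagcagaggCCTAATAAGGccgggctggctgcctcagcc
*Srf*, chr17:46556195-46556264, minus strand: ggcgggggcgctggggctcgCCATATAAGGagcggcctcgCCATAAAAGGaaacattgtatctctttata
*Vcl*, chr14:20929151-20929200, plus strand: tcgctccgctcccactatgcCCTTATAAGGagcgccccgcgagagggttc
The box began 56 bases before the start site in *Cnn2*, 161 in *Myl9* and 227 in *Vcl*, while *Srf* held 2 boxes, at 62 and 82 bases. A box is a match of letters and was not tested as a binding site, and a window without one says only that these letters are not in it.

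The genotype of the arrays was checked first. *Olfm4* had log2 values of 3.09, 3.00, 3.25 and 3.09 on knockout arrays 1 to 4 and of 10.32, 10.23, 10.74 and 10.65 on wild-type arrays 1 to 4, so each array fitted its label. Array medians lay between 6.03 and 6.09 on the log2 scale. Knockout array 1 stood apart for stromal genes, and its high stromal signal was known before the tests below were chosen, so the counts and medians of the members are given with and without it. Luminal epithelial markers, the main epithelium of the gland, were high on all 8 arrays, with a mean log2 value between 13.60 and 13.67. Markers of seminal vesicle, a gland that borders the prostate, were far higher on knockout array 1 and wild-type array 1 than on the other arrays.

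No smooth muscle contractile gene passed the test for a difference between the genotypes. With limma and Benjamini-Hochberg adjustment over all probe sets, 0 of the 74 member probe sets passed an adjusted p under 0.05, against 0.111% of all probe sets (50 of 45037). The lowest adjusted p of a member was 0.275, for a dimmer probe set of *Tpm2*, and the lowest for the brightest probe set of a gene was 0.365, for *Vcl*. At an unadjusted p under 0.05, limma put 1 member probe set (1.35%) higher in knockout prostate, against 5.46% of all probe sets. It put 1 (1.35%) lower, against 7.34% of all probe sets. Both shares of the members lay below those of the whole array. By its brightest probe set, the values of the 2 genotypes overlapped in every member. The share of all genes with such overlap was not counted, so this is not a result particular to the members.

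Represented by its brightest probe set, 23 of the 34 genes had a higher mean in knockout prostate and 11 a lower one. The median log2 fold change was 0.05, beside -0.01 over all 18193 genes. The 95% confidence interval reached to either side of the fold change by 0.15 for *Tpm1* to 0.68 for *Cacna1c*, with a median of 0.29. For 23 members the whole interval lay within 0.5 of 0 on the log2 scale (1.41-fold in either direction), and for all 34 it lay within 1 (2-fold). These intervals bound the difference in log2 value on 1 probe set a gene, and not that of the tissue RNA. Intervals of some dimmer probe sets reached beyond 2-fold, from -1.05 to 0.42 for *Des* and from -1.35 to 0.30 for *Kcnma1*. In whole tissue, fewer muscle cells and less RNA per muscle cell cannot be told apart.

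Without knockout array 1 the balance of signs turned. Then 11 genes had a higher mean in knockout prostate and 23 a lower one, and the median log2 fold change was -0.08, beside -0.02 over all genes. The sign changed from higher to lower in 13 genes, among them the actin genes *Acta2* and *Actg2*, the myosin heavy chain gene *Myh11* and *Srf*, and from lower to higher in *Kcnma1*. Still 0 of the 74 probe sets passed the adjusted threshold, against 0.0955% of all probe sets (43 of 45037). The lowest limma adjusted p was 0.211, shared by a dimmer probe set of *Cald1* and a dimmer one of *Synm*. At an unadjusted p under 0.05, 11 member probe sets (14.9%) were lower, against 6.88% of all probe sets. A single one (1.35%), of *Kcnma1*, was higher, against 6.36% of all. By their brightest probe set the lower genes were *Smtn*, *Ppp1r14a*, *Csrp1*, *Pln* and *Ckb*, with log2 fold changes from -0.24 to -0.53 and limma adjusted p from 0.252 to 0.333. The dimmer probe set of *Csrp1* had -0.03 in the same fit.

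The direction of the medians also differed between the array days. On day 1, which held knockout arrays 3 and 4 and wild-type arrays 1 and 4, the median log2 fold change of the 34 genes was -0.12, and 4 genes (*Tpm1*, *Tpm2*, *Vcl* and *Kcnma1*) had a higher mean in knockout prostate. On day 2, which held knockout arrays 1 and 2, the median was 0.19 and 27 genes had a higher mean. Day 2 is the day of knockout array 1, and the difference between days was not tested.

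**Figure D1:**
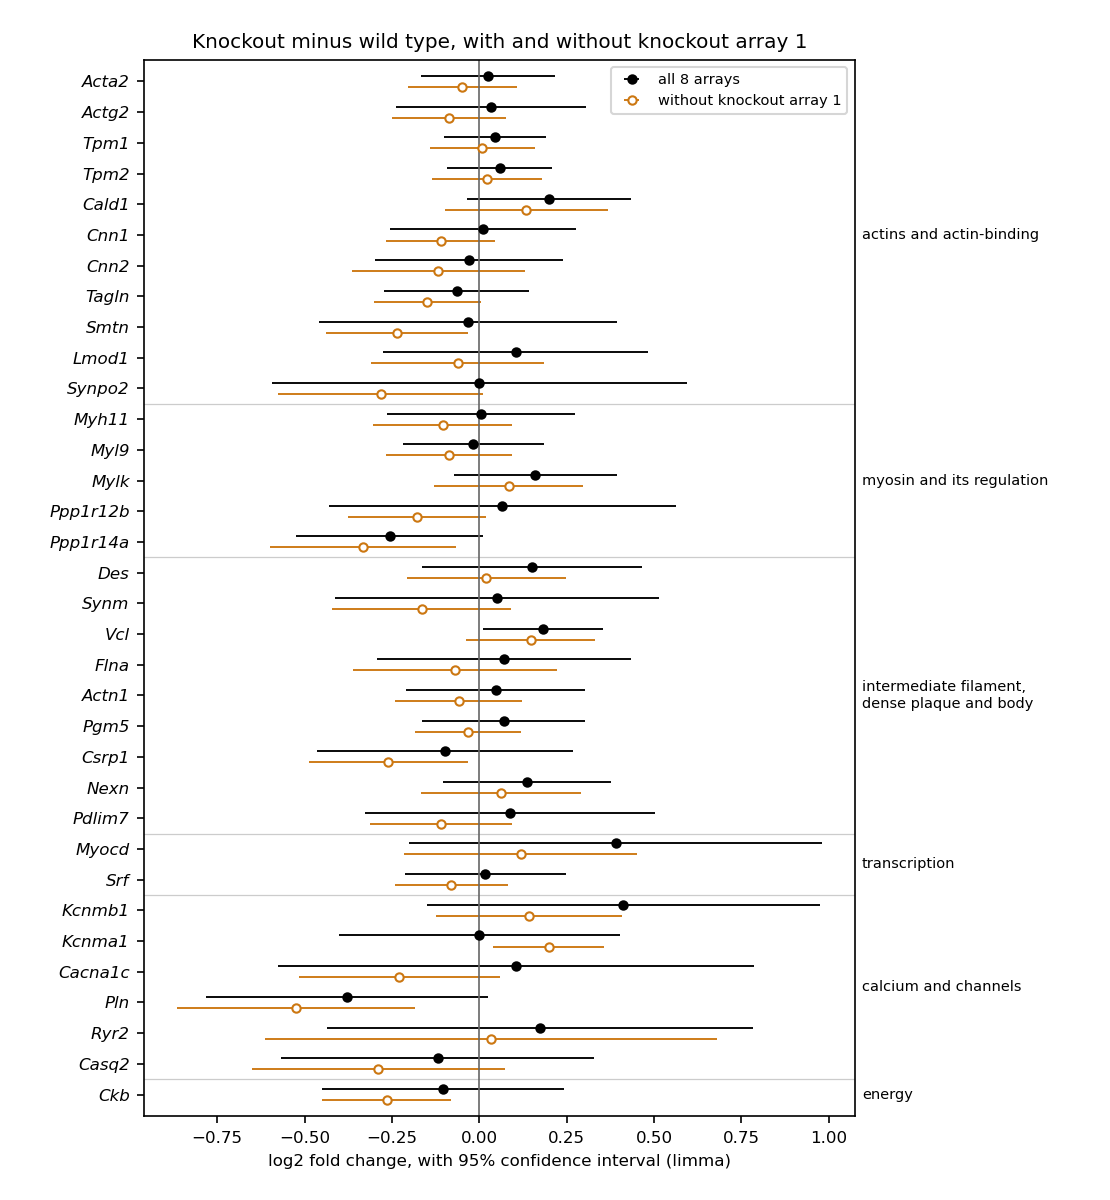
Log2 fold change, as knockout minus wild-type log2 value, of the brightest probe set of each of the 34 genes, with its 95% confidence interval from limma, for all 8 arrays (filled) and without knockout array 1 (open), grouped by role. Every interval over all 8 arrays but that of *Vcl* includes 0, and 23 genes are above 0 with all arrays and 11 without knockout array 1.

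The actins and actin-binding proteins of the thin filament were 11 members. None was called. In knockout prostate the mean was higher for 7 and lower for 4, and the log2 fold changes ran from -0.07 (*Tagln*) to 0.20 (*Cald1*). *Acta2*, the smooth muscle alpha-actin of vessels and ducts, had log2 values of 14.02, 13.73, 13.77 and 13.77 on the knockout arrays and of 13.77, 13.80, 13.76 and 13.87 on the wild-type arrays. Knockout array 1 was above every other array, knockout array 2 was the lowest, and knockout arrays 3 and 4 lay within the wild-type range. The log2 fold change of *Acta2* was 0.02 (limma standard error 0.082 and adjusted p = 0.932), and -0.05 without knockout array 1.

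*Cnn1*, basic calponin, which inhibits the myosin ATPase, had log2 values of 12.83, 12.35, 12.42 and 12.40 in knockout and of 12.50, 12.49, 12.41 and 12.55 in wild-type prostate. Here again the first knockout array alone was above the wild-type arrays, and the fold change (0.01, standard error 0.11, limma adjusted p = 0.982) was -0.11 without it. *Cald1*, caldesmon, another actin-binding inhibitor of the ATPase, had the highest fold change of this group. Its log2 values were 13.28, 13.15, 12.89 and 12.93 in knockout and 12.87, 12.88, 12.73 and 12.96 in wild-type prostate, so both knockout arrays of day 2 lay above all wild-type arrays and both of day 1 among them. The log2 fold change was 0.20 (limma standard error 0.10 and adjusted p = 0.464), or 0.13 without knockout array 1. The dimmer probe sets of *Cald1* differed in sign over all arrays, at -0.18, 0.31, 0.02 and -0.04.

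The remaining genes of the thin filament were *Actg2* (enteric gamma-actin, 0.03), the tropomyosin genes *Tpm1* (0.05) and *Tpm2* (0.06), *Cnn2* (-0.03), *Tagln* (transgelin), *Smtn* (smoothelin, -0.03), *Lmod1* (leiomodin, which nucleates actin filaments, 0.10) and *Synpo2*, whose fold change was -0.00. *Actg2* had one of the sharpest splits, with 13.54 on knockout array 1 and 13.06 to 13.21 on the other 7. *Synpo2* reached 12.43 on knockout array 1 and 11.22 to 11.78 elsewhere. A dimmer *Tpm2* probe set was the single member probe set lower at an unadjusted p under 0.05 over all arrays. It had log2 values of 7.56, 7.36, 7.76 and 7.19 in knockout and of 7.88, 7.84, 7.96 and 8.41 in wild-type prostate, which do not overlap. Its fold change was -0.55 (standard error 0.16, limma adjusted p = 0.275). The other 3 probe sets of *Tpm2* were between 0.06 and 0.24, so this difference belonged to 1 probe set and not to the gene as a whole.

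Myosin and the enzymes that set its phosphorylation were 5 members, 3 higher and 2 lower in mean, with none called. *Myh11*, the smooth muscle myosin heavy chain, had log2 values of 13.33, 12.91, 12.96 and 12.98 in knockout and of 12.96, 13.00, 12.98 and 13.22 in wild-type prostate. The high arrays were knockout array 1 and wild-type array 4, and the log2 fold change was 0.01 (standard error 0.12, limma adjusted p = 0.992), or -0.10 without knockout array 1. *Mylk*, myosin light chain kinase, and *Myl9*, its substrate, had fold changes of 0.16 and -0.02. *Ppp1r12b*, a targeting subunit of the myosin phosphatase, was at 10.94 on knockout array 1 and between 9.94 and 10.32 on the others, with a fold change of 0.07, or -0.18 without that array.

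*Ppp1r14a* (CPI-17), which inhibits the myosin phosphatase when phosphorylated, had the second lowest log2 fold change of all members. Its log2 values were 8.75, 8.33, 8.69 and 8.56 in knockout and 8.98, 8.93, 8.74 and 8.71 in wild-type prostate. Only knockout array 1 was above any wild-type array, and here it did not exceed the wild-type mean. The fold change was -0.26 (standard error 0.11, limma adjusted p = 0.409) and -0.33 without knockout array 1 (adjusted p = 0.301). The 2-sided exact permutation p was 0.0857, where 4 arrays against 4 can reach 0.0286 at the lowest.

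The intermediate filament, dense plaque and dense body genes were 9 members, 8 higher and 1 lower in mean. *Des*, the muscle intermediate filament desmin, had log2 values of 12.98, 12.51, 12.50 and 12.37 in knockout and of 12.48, 12.55, 12.26 and 12.46 in wild-type prostate. Its fold change of 0.15 (standard error 0.14, limma adjusted p = 0.688) became 0.02 without knockout array 1. A second, dimmer *Des* probe set gave -0.31 with and -0.65 without that array, so the probe sets of *Des* disagreed in sign.

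*Vcl*, vinculin, which links actin to the dense plaques of the membrane, had the lowest p among the brightest probe sets and is one of the genes with a CArG box printed above. It had log2 values of 12.83, 12.77, 12.65 and 12.70 in knockout and of 12.55, 12.54, 12.47 and 12.66 in wild-type prostate. Knockout array 3 was just under wild-type array 4, and otherwise each knockout array was above each wild-type array. The log2 fold change was 0.18 (standard error 0.073, 95% interval 0.01 to 0.35, limma adjusted p = 0.365), and 0.15 without knockout array 1. The exact permutation test gave p = 0.0571 (2-sided), the lowest among the brightest probe sets of the members. *Vcl* had a positive fold change on both array days, but its second, dimmer probe set had 0.03.

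The other members of the plaque and dense body had fold changes near 0, namely *Synm* (synemin, 0.05), *Flna* (filamin A, 0.07), *Actn1* (alpha-actinin, 0.05), *Pgm5* (aciculin, 0.07), *Nexn* (nexilin, 0.14), *Pdlim7* (0.09) and *Csrp1* (-0.10). *Synm* was at 12.12 on knockout array 1 and at 11.33 to 11.37 on the other 3 knockout arrays, which were close to each other. *Csrp1*, a LIM-domain protein of the actin cytoskeleton, spread over 0.72 on the log2 scale among the other 7 arrays. *Ckb*, the brain-type creatine kinase that buffers ATP in smooth muscle, had a fold change of -0.10 with and -0.27 without knockout array 1.

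The transcriptional regulators were *Myocd* and *Srf*. *Myocd*, myocardin, had log2 values of 9.16, 8.25, 8.26 and 8.18 in knockout and of 8.36, 7.66, 8.06 and 8.20 in wild-type prostate. Knockout array 1 was 1.09 above the wild-type mean, while the other 3 knockout arrays lay within the wild-type range. The fold change was 0.39 (standard error 0.25, limma adjusted p = 0.569), and 0.12 without that array. *Srf* had log2 values of 10.64, 10.25, 10.28 and 10.24 in knockout and of 10.34, 10.40, 10.28 and 10.33 in wild-type prostate. Apart from its first array, the knockout values of *Srf* were at or just below the wild-type ones, and the fold change was 0.02 (standard error 0.099, limma adjusted p = 0.962), or -0.08 without knockout array 1.

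Channels and calcium-handling proteins were 6 members, 3 higher and 3 lower in mean, and held the fold changes farthest from 0 in both directions. *Kcnmb1*, the beta subunit of the large-conductance calcium-activated potassium (BK) channel, had log2 values of 7.51, 6.60, 6.40 and 6.60 in knockout and of 6.53, 6.23, 6.16 and 6.54 in wild-type prostate. Its fold change of 0.41 (standard error 0.24, limma adjusted p = 0.526) was the highest of the 34 members, and 0.14 without knockout array 1, which was 1.14 above the wild-type mean. *Cacna1c*, the pore of the L-type calcium channel, was at 8.94 on that array and between 7.62 and 8.27 on the others. With them, *Myocd* and *Kcnmb1* formed the 3 members whose excess on knockout array 1 was 1 or more on the log2 scale.

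*Pln*, phospholamban, an inhibitor of the calcium pump of the sarcoplasmic reticulum, had the lowest fold change. Its log2 values were 7.53, 6.77, 7.01 and 7.21 in knockout and 7.25, 7.51, 7.60 and 7.67 in wild-type prostate. Knockout arrays 2 to 4 were all below the lowest wild-type array, and knockout array 1 was within the wild-type range. The fold change was -0.38 (standard error 0.17, limma adjusted p = 0.421), and -0.53 without knockout array 1 (adjusted p = 0.252). Dimmer probe sets of *Pln* had smaller fold changes, -0.14 and -0.12 over all arrays and -0.15 and -0.06 without knockout array 1. *Casq2*, calsequestrin, the calcium buffer of the same store, had log2 values of 9.15, 8.59, 8.62 and 8.32 in knockout and of 8.61, 8.68, 8.72 and 9.14 in wild-type prostate. The groups overlapped widely, and its fold change was -0.12 (standard error 0.19, limma adjusted p = 0.839), or -0.29 without knockout array 1. *Ryr2*, a calcium release channel, ranged from 4.90 to 6.42 among the wild-type arrays alone, with a fold change of 0.17, or 0.03 without knockout array 1.

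*Pln*, *Casq2* and *Ryr2* are also heart genes. Of 6 cardiac markers, *Myh6*, *Nppa* and *Nkx2-5* had values between 4.74 and 5.43 on all 8 arrays, below the array medians. *Myl7* lay between 4.59 and 5.93, *Tnni3* between 5.53 and 6.41 and *Tnnt2* between 6.27 and 9.39. At an unadjusted p under 0.05 in limma, *Myl7* was higher in knockout prostate (fold change 0.74, adjusted p = 0.220) and *Tnni3* lower (-0.46, adjusted p = 0.311). Their part in the values of *Pln*, *Casq2* and *Ryr2* was not tested.

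*Kcnma1*, the pore of the same BK channel as *Kcnmb1*, went the other way on knockout array 1. It had log2 values of 11.01, 11.78, 11.78 and 11.81 in knockout and of 11.55, 11.66, 11.57 and 11.61 in wild-type prostate. Knockout array 1 was the lowest of all and the other 3 knockout arrays the highest, so the fold change of -0.00 over all arrays became 0.20 without it (limma adjusted p = 0.304). On the other 4 probe sets of *Kcnma1* knockout array 1 was also the lowest array, at 7.15, 7.41, 5.36 and 3.37. Without that array their fold changes were 0.04, -0.12, -0.21 and -0.12, so the 0.20 belonged to 1 probe set. By its brightest probe set, no other member was lowest on this array. *Kcnma1* was singled out after its values were seen.

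**Figure D2:**
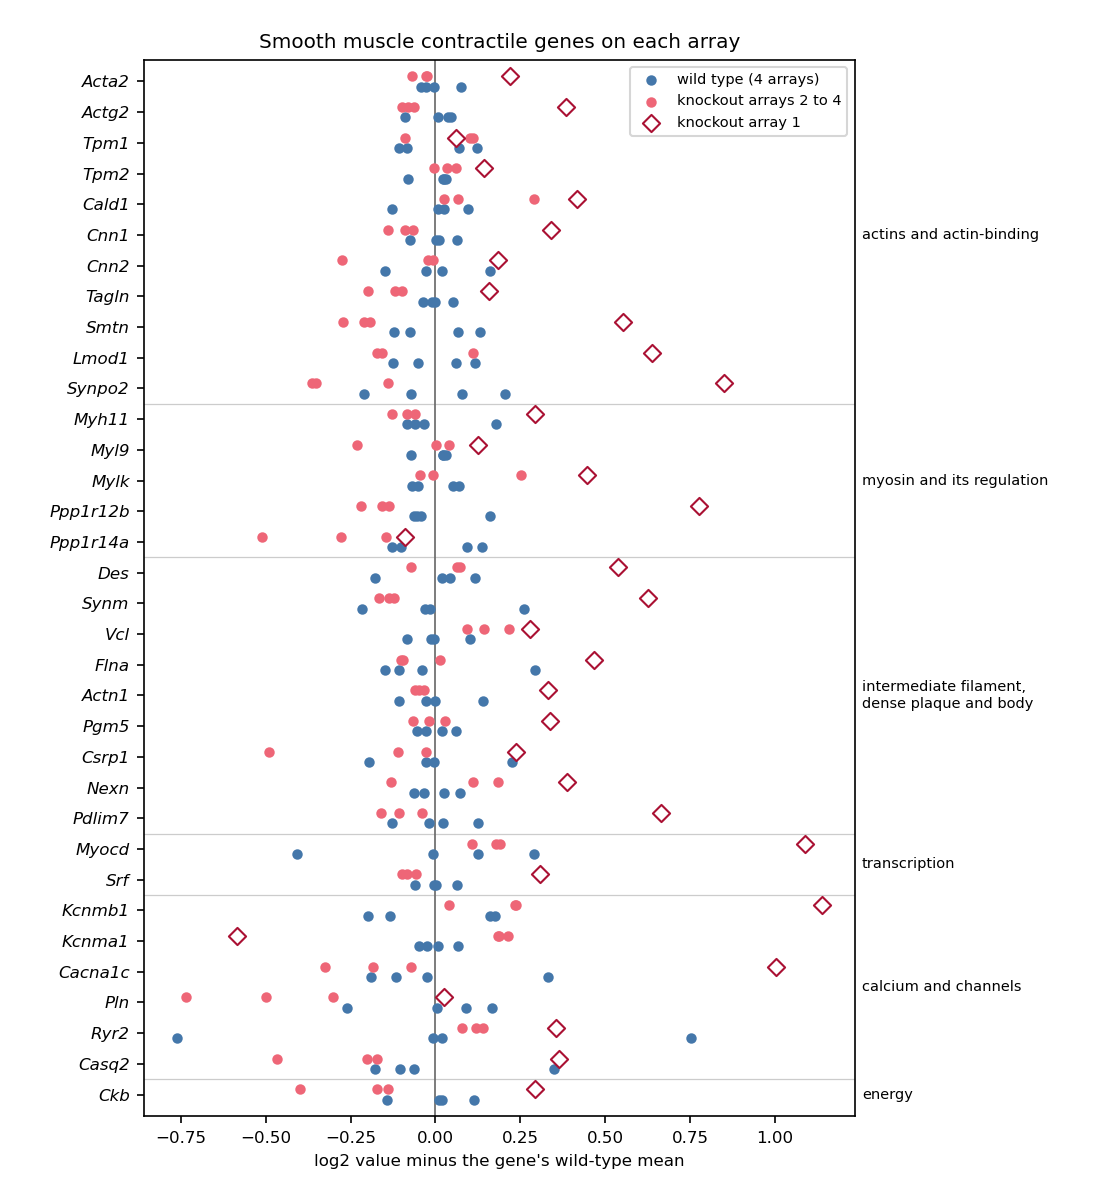
Log2 value on each array minus the wild-type mean of the gene, for the brightest probe set of each of the 34 genes, with wild-type arrays in blue, knockout arrays 2 to 4 in pink and knockout array 1 as an open diamond. Knockout array 1 is the highest of the 8 arrays for 29 genes and the lowest for *Kcnma1*, and for most genes knockout arrays 2 to 4 lie among or below the wild-type arrays.

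Across the members, the departure of 1 array was larger than the difference between the genotypes. This array, knockout array 1, had been singled out beforehand for its high stromal signal. The counts that follow therefore only describe it and are no test of it. Knockout array 1 was the highest array for 29 of the 34 genes (85.3%), beside 17.7% of all 18193 genes, and *Tpm1*, *Ppp1r14a*, *Kcnma1*, *Pln* and *Ryr2* were the exceptions. Over the members its median excess over the wild-type mean was 0.35 on the log2 scale, and in 14 genes its gap to the next array was wider than the whole range of the other 7. Of the 74 probe sets, 50 were highest on it. Knockout array 2, from the same array day, was the lowest array for 14 members (41.2%), beside 18.3% of all genes. The 8 members with a mean log2 value of 13 or more (*Acta2*, *Actg2*, *Tpm1*, *Tpm2*, *Tagln*, *Myh11*, *Myl9* and *Mylk*) had a median excess of 0.19 on knockout array 1, between 0.06 and 0.45, and the other 26 had 0.38. The genes with a CArG box had a median excess of 0.23 and those without one 0.36.

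**Figure D3:**
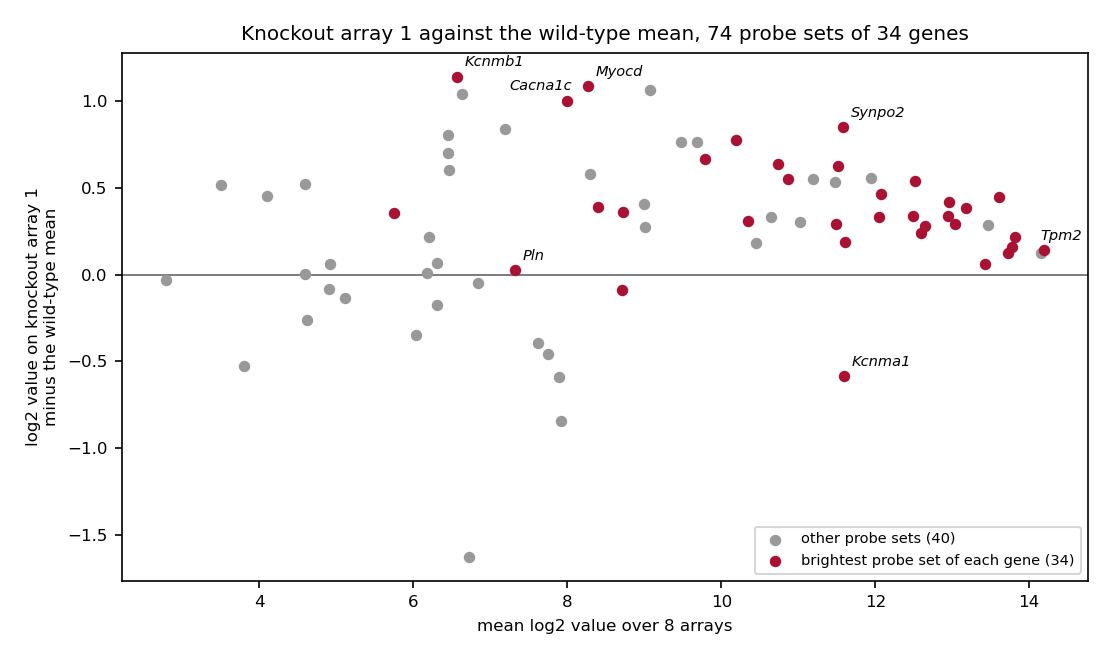
Log2 value on knockout array 1 minus the wild-type mean of the same probe set (vertical axis) against the mean log2 value of that probe set over 8 arrays (horizontal axis), for the 74 probe sets of the 34 genes, with the brightest of each gene in red. *Kcnmb1* (1.14), *Myocd* (1.09) and *Cacna1c* (1.00) are the highest of the red points, *Kcnma1* (-0.59) is the lowest, and *Tpm2*, the brightest, is at 0.14.

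Genes of other cell types moved with the members on knockout array 1. With each gene centred on its own mean, the average of the members was 0.37 on knockout array 1 and between -0.11 and 0.11 on the other 7 arrays. Pericyte markers had 0.66 on that array and were highest there for 7 of 8 genes, endothelial markers had 0.41 (6 of 8), and fibroblast markers had 0.37 (5 of 11). The mean log2 value of the pericyte markers was 8.75 on knockout array 1, 7.92 to 8.10 on the other knockout arrays and 7.85 to 8.12 on the wild-type arrays. For the endothelial markers these values were 8.10, 7.58 to 7.62 and 7.58 to 7.77, and for the fibroblast markers 10.63, 10.24 to 10.50 and 9.98 to 10.30. Their part in the result of the members was not tested.

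Seminal vesicle, nerve and adipocyte markers were also high on knockout array 1, at 3.37, 1.28 and 1.67. They were higher still on wild-type array 1, at 3.71, 1.50 and 2.61, where the contractile genes stood at -0.04. Nerve markers were also high on wild-type array 3, at 0.93, where the contractile genes stood at -0.11. Skeletal muscle markers were lowest on knockout array 1, at -0.46, and reached 1.18 on knockout array 3, where the contractile genes stood at -0.09. The part of these tissues in the values of the contractile genes was not tested.

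**Figure D4:**
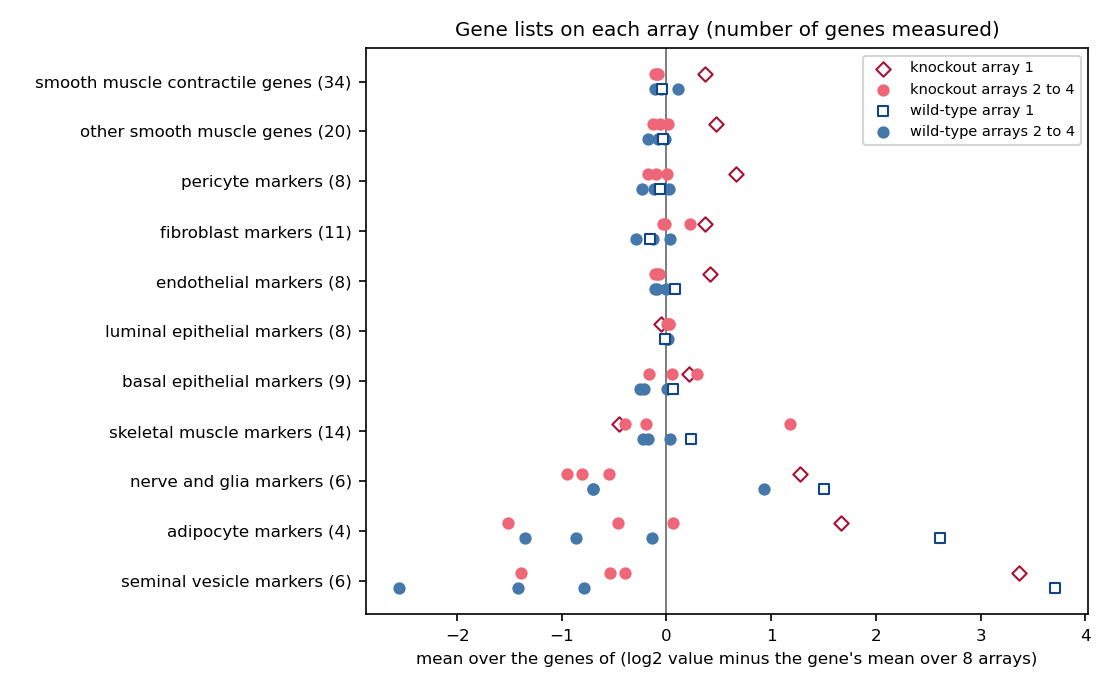
Mean over the genes of a list of the log2 value minus the gene's mean over 8 arrays, for the contractile genes and 10 other gene lists, with knockout arrays in red and wild-type arrays in blue and the first array of each genotype as an open symbol. The contractile genes, other smooth muscle genes, pericyte, fibroblast and endothelial markers are highest on knockout array 1, while seminal vesicle markers are high on both first arrays.

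Among further genes of the same pathways, limma called 0 in each of 3 lists. At an unadjusted p under 0.05 it put 3 other smooth muscle genes and 4 contraction signalling genes higher and none lower, and 1 cofactor or repressor of SRF lower, beside 1141 higher and 1544 lower of all 18193 genes. Without knockout array 1, 3 other smooth muscle genes were higher and 1 lower, 3 signalling genes were higher and 1 lower, and 1 cofactor or repressor was higher and 2 lower. In that fit 6.36% of all probe sets were higher and 6.88% lower at the same threshold. Of 20 other smooth muscle genes measured, 17 were higher and 3 lower in mean, with a median log2 fold change of 0.08, or -0.12 without knockout array 1. The smallest p belonged to *Sorbs2*, an adaptor of actin and focal adhesions, and *Itga8*, the integrin alpha-8 chain of smooth muscle. *Sorbs2* had values of 11.37 to 11.71 in knockout and of 11.13 to 11.24 in wild-type prostate (fold change 0.30, standard error 0.085, limma adjusted p = 0.265), and *Itga8* had a fold change of 0.42 (adjusted p = 0.283). Both were also higher in mean without knockout array 1, at 0.23 and 0.44.

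Of 21 measured genes that signal to the contractile machinery, 12 were higher and 9 lower in mean, with a median log2 fold change of 0.03, or -0.01 without knockout array 1. *Ednrb*, an endothelin receptor, had a log2 fold change of 0.62 (limma standard error 0.20 and adjusted p = 0.298), with values of 8.69 to 9.53 in knockout and of 8.08 to 8.77 in wild-type prostate, which overlap, and 0.48 without knockout array 1. *Ppp1cb*, a catalytic subunit of the myosin phosphatase, chosen after its values were seen, had values of 12.56 to 13.02 in knockout and of 12.31 to 12.53 in wild-type prostate, which do not overlap. Its log2 fold change was 0.30 (limma standard error 0.11 and adjusted p = 0.320), and 0.36 without knockout array 1. The genes of this list are made by many cell types of the gland, muscle among them.

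Of 12 cofactors and repressors of SRF, 6 were higher and 6 lower in mean. *Klf4*, a transcription factor that represses myocardin and SRF target genes and is also made by epithelium, had log2 values of 10.13, 10.08, 10.15 and 10.05 in knockout and of 10.89, 10.60, 10.77 and 10.59 in wild-type prostate. Every knockout array was below every wild-type array, the fold change was -0.61 (standard error 0.085), and the limma adjusted p of 0.0773 missed the threshold. It was -0.63 without knockout array 1. *Foxo4*, a repressor of myocardin, also had values that did not overlap, with a fold change of -0.13 both with (limma adjusted p = 0.416) and without knockout array 1.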

How the data were processed

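The authors measured RNA on genome-wide Affymetrix mouse arrays and deposited log2 values made with RMA (background correction, quantile normalization, 1 value per probe set), whose version the sources used here do not state. RMA can compress differences at both ends of the scale, and no detection calls were used. The labels give 4 mice per genotype and Trizol extraction, whereas the methods give 5 mice and a column kit. A figure legend of the paper has 4 among the group sizes of the arrays. Arrays of older mice are not analysed here.

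Each probe set was fitted in R 4.3.3 with lmFit and eBayes of limma 3.58.1, on genotype and array day, with 2-sided tests. Day was read from the sample titles. After leaving out 64 control probe sets, Benjamini-Hochberg adjustment ran over 45037 probe sets, of which 34945 had 1 gene symbol, 932 several and 9160 none. A gene stands for its probe set with the highest mean. Of the members, 21 had several probe sets, and in 11 these differed in sign. Single genes were also compared with an exact permutation test. The number of arrays limits the precision. The fit was tested on simulated data. These were drawn independently for each probe set and array, so genes that move together on an array were not covered.

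The members and the gene lists were chosen with earlier results of these data known. Values on each array are given for members with an unadjusted p under 0.05, the 3 with the highest and the 3 with the lowest fold change, and *Acta2*, *Myh11*, *Des*, *Cnn1*, *Myocd* and *Srf*; of other lists, up to 2 genes with the smallest p are named, except 1 result that is not reported here. Other members named with array values were chosen after these were seen. The remaining lists were cardiac, basal epithelial and leukocyte markers, with median log2 fold changes of 0.10, 0.21 and -0.17 and 0 calls. Alternatives covered the model, the scaling, filters on dim probe sets and leaving out arrays.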

Additional observations from a re-analysis of the deposited data

Results flagged for a closer look

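Within each genotype, the array farthest from the other 3 was compared with the range of the 4 arrays for each of the 34 genes (Dixon's ratio, at its 95% critical value). Of 68 groups of 4 arrays, 15 passed, where chance gives about 1 in 20, and the members vary together, so these are not 15 independent events. Knockout array 1 had been singled out for its stromal signal beforehand, so its ratios only describe that array. In 11 genes knockout array 1 was far above the other knockout arrays. The ratio was 0.846 for *Acta2*, 0.929 for *Actg2*, 0.847 for *Cnn1*, 0.905 for *Smtn* and 0.836 for *Myh11*. It was 0.918 for *Ppp1r12b*, 0.943 for *Synm*, 0.935 for *Actn1*, 0.854 for *Pdlim7*, 0.918 for *Myocd* and 0.898 for *Srf*. For *Kcnma1* the same array was far below the others, with the highest ratio of all, 0.965.

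Among wild-type arrays, array 3 was far below the others for *Tpm2* (0.927) and *Myl9* (0.917), and array 4 far above them for *Ppp1r12b* (0.917). These ratios describe close groups of 3 arrays, since *Tpm2* was at 14.08 on wild-type array 3 and at 14.19 on each of the others.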

How the results depend on the processing

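No member passed an adjusted p under 0.05 in any alternative run, and the lowest adjusted p of a named member was 0.149, without both knockout array 1 and wild-type array 1. *Vcl*, *Pln* and *Ppp1r14a* kept their sign in every alternative, and the sign turned in 35 of 275 alternative values of the 12 named members. Leaving out 1 array, the log2 fold change ran from -0.048 to 0.067 for *Acta2*, from -0.11 to 0.081 for *Cnn1*, from -0.10 to 0.083 for *Myh11*, from -0.080 to 0.077 for *Srf* and from -0.29 to 0.043 for *Casq2*. Without both first arrays *Acta2* was at -0.073, *Cnn1* at -0.12, *Myh11* at -0.17 and *Srf* at -0.079. On day 1 alone *Acta2* was at -0.049, *Cald1* at -0.0056, *Cnn1* and *Myh11* at -0.12, *Des* at -0.035, *Myocd* at -0.060, *Srf* at -0.077 and *Kcnmb1* at -0.031, and on day 2 alone *Casq2* was at 0.17. With array weights *Acta2* was at -0.0048, *Cnn1* at -0.044, *Myh11* at -0.030 and *Srf* at -0.036. After another quantile normalization *Cnn1* was at -0.0025 and *Myh11* at -0.0037, and with the mean over probe sets *Des* was at -0.081 and *Srf* at -0.039. Relative to the mean of the members on each array, an alternative chosen after seeing the data, *Acta2* was at -0.020, *Cnn1* at -0.034, *Myh11* at -0.039 and *Srf* at -0.027. The count of called probe sets over the whole array, 50, was 20 with a replicate block, 4 on either day alone, 24 with ANOVA and 121 relative to the member mean. It ran from 17 to 43 leaving out 1 array (24, 26 and 20 without knockout array 2, 3 or 4, and 17 and 19 without wild-type array 2 or 3). Member probe sets higher at an unadjusted p under 0.05, 1 at first, were 3 with the replicate block, 5 on day 2, 2 with a trended robust variance, 2 with median centring, and 0 on day 1, without both first arrays and relative to the member mean. They ran from 0 (without wild-type array 1, 2 or 3) to 3 (without wild-type array 4) when 1 array was left out. Those lower, 1 at first, were 3 without array day, 3 with array weights, 6 on day 1, 2 on day 2, 14 without both first arrays, 2 relative to the member mean, and from 1 to 11 leaving out 1 array, with 11 without knockout array 1 and 4 without wild-type array 1. Deviations from the genotype mean correlated between arrays of equal replicate number at 0.336, 0.173, 0.0433 and -0.0056. Knockout array 1 correlated best with wild-type array 1, but knockout arrays 2, 3 and 4 with wild-type arrays of another number. With the replicate block no member was called. The causes of these shifts were not tested. Counts at an unadjusted p under 0.05 have a share of all probe sets only for the main fit and without knockout array 1. Under the other settings the counts cannot be read against all probe sets. The number of arrays, 4 a genotype, limits the precision of every value.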
